A study of Mus musculus with 15 samples.

Results

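Amino acid catabolism was followed across 38 genes for enzymes that break down tyrosine, tryptophan, serine, alanine, aspartate, glutamate, ornithine, proline, lysine, the branched chain amino acids, histidine, glycine and cysteine. The genes were chosen by name, with earlier results of these data known, and grouped by the amino acid degraded. All 38 were found once each among the 35275 genes of the deposited count table, and all 38 passed the filter on low counts. The data were liver mRNA from 15 libraries of C57BL/6 mice, with 5 libraries from mice on every-other-day fasting for 24 h (EOD), 5 from mice on 16-h intermittent fasting (IF16) and 5 from mice fed ad libitum (AL). The mice were 3 months old at the start and 6 months old at the end, after 3 months on the regimen, and the left lateral lobe was used. The strain was common to all the groups, and no allele or drug was listed. Whether the 5 libraries of a group came from 5 mice, and whether livers were taken fed or fasted, is not stated in the labels, so p-values measure only the spread between libraries, which may be technical.

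Amino acids that are not used for protein lose their amino group to transaminases or dehydrogenases, and the nitrogen is passed to urea. The carbon skeletons enter glucose synthesis, ketone bodies or the citric acid cycle, and some branches make cofactors such as NAD, one-carbon units or taurine. The liver carries most of these routes, except that the transamination of branched chain amino acids takes place mainly in muscle. Many of these genes are known to respond to glucagon and glucocorticoids during a fast.

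Library totals ran from 28129883 to 38147534 counts, and the 38 genes together took 1.39% to 1.86% of them. Levels of one gene are given in CPM, counts scaled to a common library size by TMM, and 3 counts in a library correspond to 0.0786 to 0.107 CPM. Every adjusted p is from edgeR's quasi-likelihood test fitted over all 13837 genes tested, with Benjamini-Hochberg adjustment, and a gene is called at an adjusted p of at most 0.05. Of the libraries, AL replicates 4 and 5 stood apart by the acute phase transcript Saa1, which stood at 2807 CPM in replicate 4 and 5607 CPM in replicate 5, while the other AL libraries had 27.9 to 30.5 CPM. EOD replicate 5 had 10.1% of its counts from mitochondrially encoded genes, against 5.34% to 6.83% in the other EOD libraries, while the share was 8.98% to 11.5% in IF16 and had a median of 10.4% and a highest value of 15.1% in AL. The mitochondrial share thus moved with the EOD comparisons: EOD replicates 1 to 4 lay below every IF16 and AL library, and its part in the results on EOD was not tested. IF16 replicate 5 held the skeletal muscle transcript Acta1 at 45.8 CPM, against at most 0.449 CPM elsewhere. Of the hepatocyte markers, 5 of 6 were in the table under the symbols used, and their summed level was 82588 to 111538 CPM in EOD, 100460.0 to 129871 CPM in IF16 and 82319 to 102552 CPM in AL.

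Amino acid enzymes changed in both directions under every-other-day fasting, led by rises in Gldc and Tdo2 and falls in Prodh and Haao, while 1 gene passed the test under 16-h fasting. In EOD against AL livers, 11 of the 38 genes rose and 9 fell (52.6% called), where 35.2% of all genes tested were called, 17.6% higher and 17.6% lower. The list was chosen with earlier results of these data known, so these shares are a description and not a test. Called genes were more frequent among well expressed genes, at 45.7% of the 4778 genes whose mean level was at least that of the lowest of the 38, a comparison chosen after the values were seen. The median log2 fold change of the 38 genes was -0.01, as was that of all genes tested, and the values ran from -0.65 to 0.96. Without regard to sign, the median was 0.282 in the 38 genes and 0.333 in all genes tested. These medians were 0.116 and 0.175 in IF16 against AL, and 0.251 and 0.244 in EOD against IF16. In IF16 against AL livers, 1 gene fell and none rose (2.63%), where 3.50% of all genes were called, 1.40% higher and 2.10% lower, and 4.90% of those 4778 well expressed genes. That gene was Oat, and 7 of the 38 had an unadjusted p under 0.05, against 2579 of the 13837 genes tested. In EOD against IF16 livers, 9 genes rose and 5 fell (36.8%), where 16.1% of all genes were called, 7.96% higher and 8.15% lower, and 23.0% of the well expressed genes. The comparisons share their libraries, so they are not independent of one another. Without AL replicates 4 and 5, 9 genes rose and 8 fell in EOD against AL, none was called in IF16 against AL, and 9 rose and 3 fell in EOD against IF16. Over all genes, that setting called 4311 in EOD against AL, 368 in IF16 against AL and 2382 in EOD against IF16. Of these calls, 54.1%, 33.2% and 54.3% were higher, in that order.

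**Figure D1:**
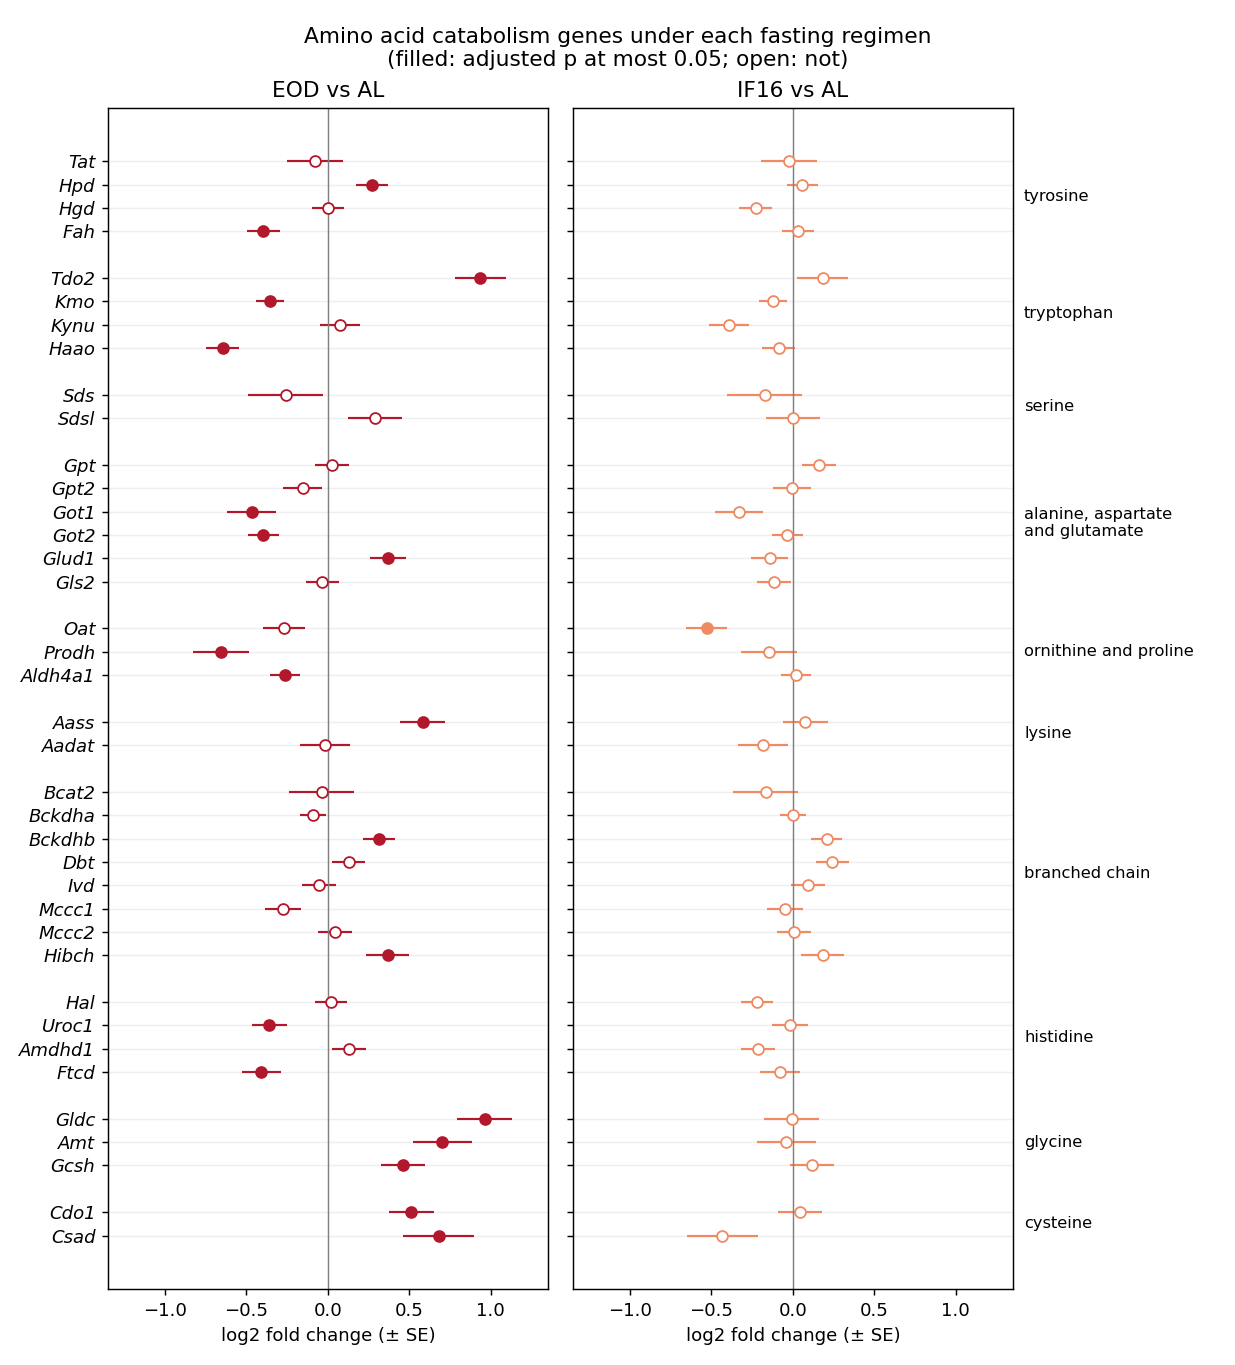
Log2 fold change with its SE (x axis) for the 38 genes (y axis, grouped by amino acid) in EOD against AL (left) and in IF16 against AL (right); filled points have an adjusted p of at most 0.05. In EOD the genes of glycine and cysteine breakdown lie right of 0, whereas in IF16 only Oat is filled.

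The 3 genes of the glycine cleavage system rose together in EOD against AL livers, where 17.6% of all genes tested were called higher. This mitochondrial system splits glycine into carbon dioxide, ammonia and a one-carbon unit carried by tetrahydrofolate. Gldc encodes the decarboxylase that starts the reaction, Amt the aminomethyltransferase that frees the ammonia, and Gcsh the lipoyl carrier protein that shuttles the intermediate between them. The 250 bases before the RefSeq start site of each gene are shown (build GRCm38.p6, 5′ to 3′ in the direction of transcription). These 3 genes were picked after their rise was seen, and the part of their promoters in it was not tested. Capitals mark CCAAT boxes (CCAAT, or ATTGG on the other strand) and GC boxes (GGGCGG, or CCGCCC on the other strand). The Gldc stretch is chr19:30175442-30175691 on the minus strand, the Amt stretch is chr9:108296655-108296904 on the plus strand, and the Gcsh stretch is chr8:116993499-116993748 on the minus strand.
Gldc: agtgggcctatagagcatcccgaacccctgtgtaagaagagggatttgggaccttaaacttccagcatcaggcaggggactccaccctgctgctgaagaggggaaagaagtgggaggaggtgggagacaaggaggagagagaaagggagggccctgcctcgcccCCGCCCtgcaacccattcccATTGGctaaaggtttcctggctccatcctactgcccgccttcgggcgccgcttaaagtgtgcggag
Amt: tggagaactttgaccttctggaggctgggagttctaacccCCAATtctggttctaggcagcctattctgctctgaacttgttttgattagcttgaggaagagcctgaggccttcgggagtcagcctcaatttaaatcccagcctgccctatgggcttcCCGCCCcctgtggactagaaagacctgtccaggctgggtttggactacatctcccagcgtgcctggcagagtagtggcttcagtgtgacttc
Gcsh: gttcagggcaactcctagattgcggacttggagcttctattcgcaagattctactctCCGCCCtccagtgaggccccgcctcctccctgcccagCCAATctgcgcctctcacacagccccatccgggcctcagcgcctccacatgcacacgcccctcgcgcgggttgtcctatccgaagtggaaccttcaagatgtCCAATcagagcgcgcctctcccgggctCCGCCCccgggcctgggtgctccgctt

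The Gldc stretch held 1 CCAAT box at -66 to -62 and 1 GC box at -86 to -81, counted from the start site. The Amt stretch held them at -210 to -206 and at -92 to -87. The Gcsh stretch held 2 CCAAT boxes, at -156 to -152 and -54 to -50, and 2 GC boxes, at -193 to -188 and -27 to -22. All 3 stretches thus carried both boxes, as did 11.0% of the 32851 promoters in the RefSeq table and 5 of the 31 amino acid genes that had an entry (Mccc1 and Bckdhb besides these). The nearest start of a coding transcript in GENCODE lay 12, 35 and 39 bases from the RefSeq start of Gldc, Amt and Gcsh. By the deposited gene coordinates, Amt starts at 108296853 and Gcsh, on the minus strand, at 116993537. The bases of these windows nearest the RefSeq start thus lie inside the gene, among them the Gcsh GC box at -27 to -22.

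The 31 matched genes had 34 entries, and the first of each gene was searched, whereas the shares of all promoters cover all 32851 entries. In 30 of the 34, the first transcribed bases lay in a GENCODE transcript of the gene. Among the first entries of the 31 genes, the CCAAT box was found in 17 (33.8% of all promoters), in 7 of the 10 that rose in EOD against AL, in 3 of the 9 that fell and in 7 of the 12 others. GGGCGG was found in 12 (32.7% of all promoters), in 7 of those that rose, 1 of those that fell and 4 of the others. Both strands were searched over the 250 bases before the start. The cyclic AMP response element (TGACGTCA) was in none of the 31 and in 1.55% of all promoters, and its half-site (TGACG, which the full element also contains) was in 3 and in 17.8%. A glucocorticoid response half-site (AGAACA) was in 2, against 16.1% of all promoters, and the palindrome of the C/EBP factors (TTGCNNAA) was in 3, against 9.56%. An E-box (CACGTG) was in 1, against 6.02% of all promoters, and a TATA box (TATAAA) was in 5, against 12.4%. The direct repeat bound by PPAR (AGGTCA repeated after 1 base) was in none, and in 0.0335% of all promoters. These matches describe the letters in the window and not binding. The genes without an entry were Kynu, Sds, Sdsl, Gpt, Gls2, Dbt and Cdo1.

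Gldc (chromosome 19, 30098449 to 30175418, mm10, minus strand) was measured at 151, 149, 111, 112 and 124 CPM in EOD replicates 1 to 5. It was at 63.3, 71.4, 59.4, 89.7 and 46.0 CPM in IF16 and at 89.2, 50.2, 65.5, 62.1 and 64.5 CPM in AL. All 5 EOD libraries lay above every other library, and the IF16 and AL libraries overlapped. The log2 fold change was 0.96 in EOD against AL (SE 0.17, adjusted p = 0.000385), 0.97 in EOD against IF16 (SE 0.17, adjusted p = 0.00113) and -0.01 in IF16 against AL (SE 0.17, adjusted p = 0.988).

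Amt (chromosome 9, 108296853 to 108301571, plus strand) was at 26.3, 35.5, 23.7, 19.9 and 19.6 CPM in EOD, at 14.3, 18.8, 15.2, 13.5 and 13.0 CPM in IF16, and at 19.0, 10.4, 19.6, 13.2 and 14.6 CPM in AL. The EOD libraries again lay above all others, though the lowest of them, at 19.62 CPM, was just over the highest AL library, at 19.55 CPM. The log2 fold change was 0.70 in EOD against AL (SE 0.18, adjusted p = 0.00682) and 0.74 in EOD against IF16 (SE 0.18, adjusted p = 0.0113). Gcsh (chromosome 8, 116981810 to 116993537, minus strand) was at 110.1, 114, 125, 108 and 69.4 CPM in EOD, at 88.4, 91.2, 86.1, 70.9 and 78.2 CPM in IF16, and at 83.9, 61.6, 85.7, 76.9 and 74.0 CPM in AL. For Gcsh, 4 EOD libraries lay above all others, and EOD replicate 5 fell within the range of AL. The rise of Gcsh in EOD against AL was 0.46 on the log2 scale (SE 0.14, adjusted p = 0.0145), and 0.61 without EOD replicate 5 (adjusted p = 0.000288, range over the alternatives 0.000288 to 0.0443). In EOD against IF16 it had a log2 fold change of 0.34 (adjusted p = 0.093). The fourth component, the dihydrolipoamide dehydrogenase gene Dld, which serves other complexes too, had a log2 fold change of 0.34 in EOD against AL (SE 0.13, adjusted p = 0.0528).

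Both genes of cysteine breakdown to taurine rose in EOD against AL as well, where 17.6% of all genes tested were called higher. Cdo1, the dioxygenase that oxidises cysteine to cysteine sulfinate, was at 2015, 2324, 2189.9, 2117 and 2249 CPM in EOD, at 1231, 1574, 1547, 2221 and 1291 CPM in IF16, and at 1602, 1577, 1698, 1360.1 and 1396 CPM in AL. The EOD libraries lay above all AL libraries, but IF16 replicate 4 reached the EOD range. The log2 fold change was 0.51 in EOD against AL (SE 0.14, adjusted p = 0.00755) and 0.47 in EOD against IF16 (SE 0.14, adjusted p = 0.0256). The call in EOD against IF16 ended without EOD replicate 2 (adjusted p = 0.0589) and without IF16 replicate 5 (adjusted p = 0.0758), in a range of 0.00135 to 0.0758 over the alternatives.

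Csad, the decarboxylase that turns cysteine sulfinate into hypotaurine, was at 301, 250.2, 305, 147 and 229 CPM in EOD. Its levels were 89.3, 111, 100.1, 152 and 117 CPM in IF16 and 196, 154, 203, 111 and 105 CPM in AL. EOD replicate 4 was the low EOD library and overlapped both other groups, whereas the other 4 EOD libraries lay above all 10 others. At 1.11 (SE 0.22, adjusted p = 0.00308), its log2 fold change in EOD against IF16 was the highest of the 38 genes in that comparison. In EOD against AL it was 0.68 (SE 0.22, adjusted p = 0.0226). That call ended without EOD replicate 1 (adjusted p = 0.0582), EOD replicate 3 (0.0635), AL replicate 4 (0.0541) or AL replicate 5 (0.0558). Without both AL replicates 4 and 5, which were the lowest AL libraries, the log2 fold change was 0.45 (adjusted p = 0.118, range over the alternatives 0.00583 to 0.118).

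**Figure D2:**
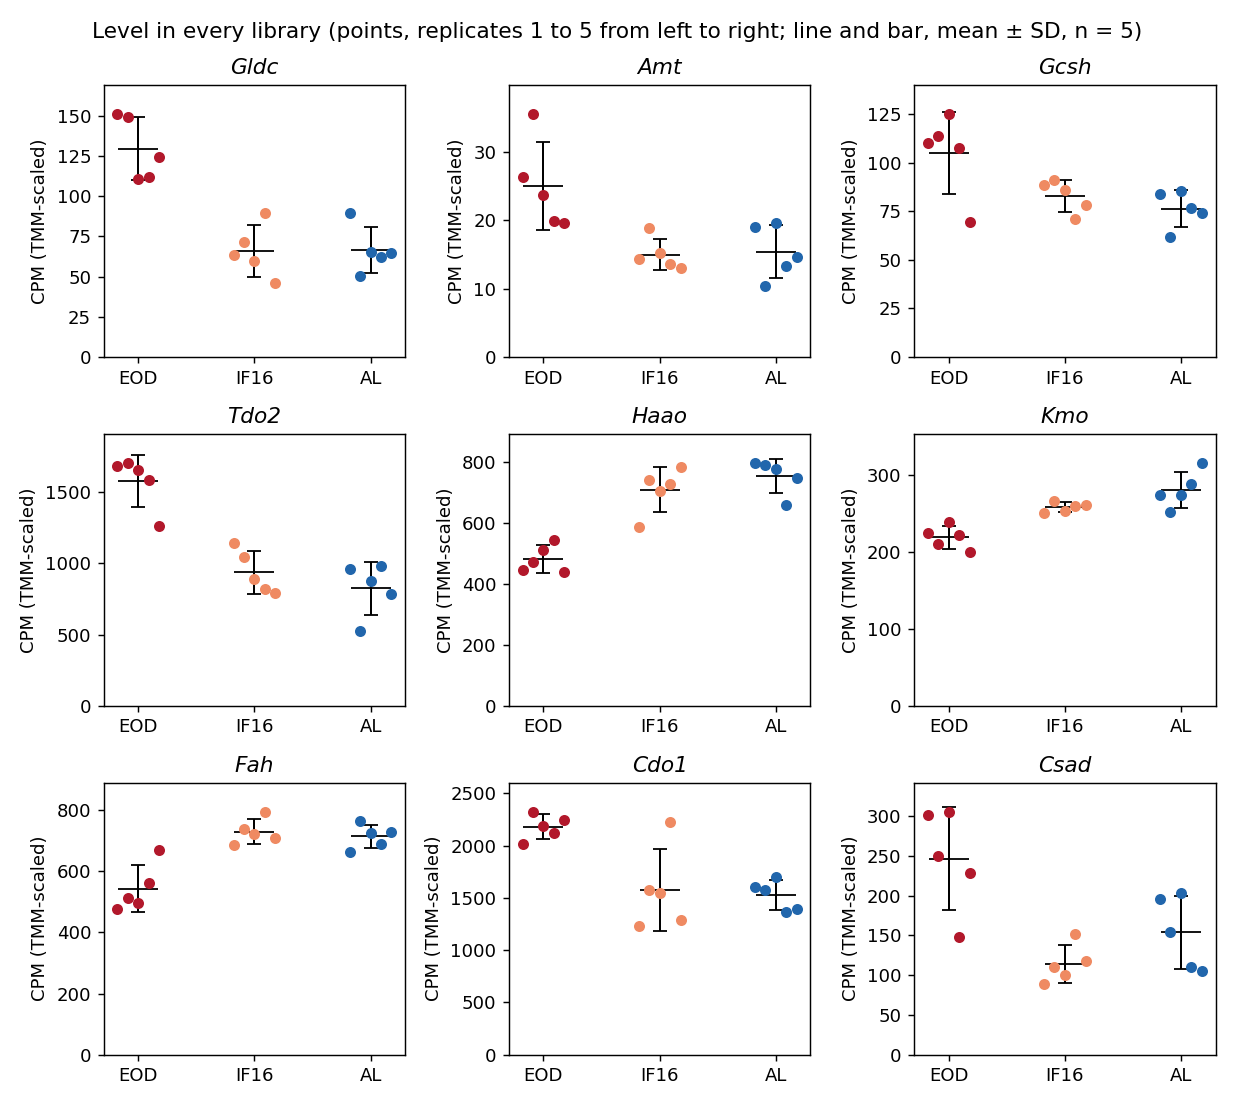
CPM in every library (y axis, from 0) of 9 genes by group (x axis); points are replicates 1 to 5 from left to right, and the line and bar give the mean ± SD (n = 5). Gldc, Amt and Tdo2 are higher in all 5 EOD libraries than in any other library, and Haao and Kmo are lower in all of them.

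Of the 4 tryptophan genes among the 38, Tdo2 rose in EOD against AL, Haao and Kmo fell, and Kynu was not called. The shares over all genes tested were 17.6% higher and 17.6% lower. Tdo2 (chromosome 3, 81957090 to 81975750, minus strand) encodes tryptophan dioxygenase, which opens the indole ring and sets the entry into the kynurenine pathway in liver. It was at 1687, 1707, 1659.7, 1589.5 and 1262 CPM in EOD, at 1142, 1047, 889, 818 and 795 CPM in IF16, and at 961, 524, 878, 981 and 787 CPM in AL. All EOD libraries lay above all others, with EOD replicate 5 the lowest of them. Its log2 fold change was 0.94 in EOD against AL (SE 0.16, adjusted p = 0.000262) and 0.75 in EOD against IF16 (SE 0.16, adjusted p = 0.00392), and 0.18 in IF16 against AL (SE 0.16, adjusted p = 0.573). Without EOD replicate 5, the library with the high mitochondrial share, the value in EOD against AL was 1.04 (adjusted p = 8.88e-05, range over the alternatives 2.28e-07 to 0.00123).

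Haao (chromosome 17, 83831356 to 83846790, minus strand) encodes the dioxygenase that opens 3-hydroxyanthranilate on the way to quinolinate and NAD. Its levels were 444, 471, 512, 545 and 437 CPM in EOD, 588, 740.3, 705, 728 and 784 CPM in IF16, and 796, 789, 776, 659 and 746 CPM in AL. Every EOD library was below every other library, and the gene fell by 0.64 on the log2 scale in EOD against AL (SE 0.10, adjusted p = 0.000151) and by 0.56 in EOD against IF16 (SE 0.10, adjusted p = 0.00153). Kmo, the monooxygenase that hydroxylates kynurenine, was at 225, 209.8, 239, 222 and 199.7 CPM in EOD, at 251, 267, 253, 259 and 261 CPM in IF16, and at 273, 251, 274, 288 and 315 CPM in AL. The EOD values lay below all others, with a log2 fold change of -0.36 in EOD against AL (SE 0.09, adjusted p = 0.00378) and -0.24 in EOD against IF16 (SE 0.08, adjusted p = 0.0664). Without AL replicates 4 and 5 the Kmo value against AL was -0.25 (adjusted p = 0.0594, range over the alternatives 6.02e-05 to 0.0594). Kmo overlaps Fh1 on the opposite strand, whose counts came to 105% of those of Kmo and whose log2 fold change in EOD against AL was -0.46 (adjusted p = 0.00822). Without strand, reads from bases that exons of both genes cover cannot be told apart, so the value of Kmo is uncertain. The overlap was taken from the outer gene coordinates, and how many exon bases the 2 genes share was not measured.

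Kynu, the kynureninase that forms anthranilate and 3-hydroxyanthranilate, was at 155, 202, 133, 169.5 and 164 CPM in EOD, at 100.5, 121, 118, 144 and 112 CPM in IF16, and at 171, 125, 156, 159 and 171 CPM in AL. EOD and AL overlapped, and 4 of the 5 IF16 libraries lay below every EOD and AL library. Kynu rose in EOD against IF16 (log2 fold change 0.47, SE 0.12, adjusted p = 0.0165), a call that ended without EOD replicate 2 (adjusted p = 0.0535, the highest over the alternatives, the lowest being 0.00408). In IF16 against AL the log2 fold change was -0.39 (SE 0.12, adjusted p = 0.0915).

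The other 6 genes of tryptophan breakdown were also divided. In EOD against AL, 2 of them rose and 3 fell, where 17.6% of all genes tested were called higher and 17.6% lower. Qprt, which makes nicotinate mononucleotide from quinolinate, was at 85.1 to 94.4 CPM in EOD, 123 to 162 CPM in IF16 and 159 to 209 CPM in AL, with no overlap between EOD and either other group. Its log2 fold change was -1.06 in EOD against AL (SE 0.10, adjusted p = 8.82e-07), -0.41 in IF16 against AL (SE 0.09, adjusted p = 0.0221) and -0.65 in EOD against IF16 (adjusted p = 0.000241). Afmid, the formamidase of the second step, rose by a log2 fold change of 0.89 in EOD against AL (SE 0.15, adjusted p = 0.000263). Ccbl2, one of the kynurenine aminotransferases, rose by 1.31 in EOD against AL (SE 0.18, adjusted p = 5.99e-05) and by 0.73 in EOD against IF16 (adjusted p = 0.0117). Another, Ccbl1, fell by 0.69 in EOD against AL (SE 0.12, adjusted p = 0.000321) and by 0.53 in IF16 against AL (adjusted p = 0.0192). Ido2, a dioxygenase that also acts on tryptophan at the first step, fell by 0.48 in EOD against AL (SE 0.12, adjusted p = 0.00605) and by 0.43 in EOD against IF16 (adjusted p = 0.0255). The Ido2 call in EOD against IF16 ended without EOD replicate 2 (0.065) or 4 (0.062), or IF16 replicate 1 (0.0749) or 2 (0.05) (each value an adjusted p, range over the alternatives 0.0122 to 0.119). The Qprt call in IF16 against AL ended without IF16 replicate 3 (0.0634) or 5 (0.0654), AL replicate 1 (0.0524) or 5 (0.0519), or both AL replicates 4 and 5 (0.117) (each value an adjusted p, range over the alternatives 0.0009 to 0.117). The Ccbl1 call in IF16 against AL ended without IF16 replicate 2 (0.0576), or both AL replicates 4 and 5 (0.0969) (each value an adjusted p, range over the alternatives 0.00131 to 0.0969).

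In tyrosine breakdown the entry gene was not called, the next one rose in EOD livers and the last one fell. The shares over all genes tested were 17.6% higher and 17.6% lower in EOD against AL. Tat, the tyrosine aminotransferase that starts the route and a textbook glucocorticoid target, was at 1455, 992, 1515, 1413 and 1869 CPM in EOD, at 1121, 1509, 1399, 1616 and 1874 CPM in IF16, and at 1437, 1373, 1735, 1147 and 1953 CPM in AL. The groups overlapped throughout, and the log2 fold change in EOD against AL was -0.08 (SE 0.17, adjusted p = 0.754). Hpd, the next enzyme, was at 2451, 2283, 2575, 2415 and 2632 CPM in EOD, at 1941, 2203, 2001, 2342 and 2179.7 CPM in IF16, and at 2124, 2125, 2319, 1802 and 1872 CPM in AL. It rose in EOD against AL (log2 fold change 0.27, SE 0.10, adjusted p = 0.0362), although 1 AL library exceeded the lowest EOD library. The Hpd call ended without EOD replicate 1 (adjusted p = 0.0554), EOD replicate 3 (0.0744), EOD replicate 4 (0.0507), AL replicate 4 (0.0938) or AL replicate 5 (0.0855). Without both AL replicates 4 and 5, the lowest AL libraries, it was 0.20 (adjusted p = 0.15, range over the alternatives 0.00804 to 0.15).

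Hgd, which opens the homogentisate ring, was not called, at 506 to 585 CPM in EOD, 424 to 529.7 CPM in IF16 and 501 to 652 CPM in AL. Fah, the hydrolase of the last step, was at 476, 514, 495, 561 and 669 CPM in EOD, at 685, 738, 722, 795 and 709 CPM in IF16, and at 664, 764, 725, 688 and 729.5 CPM in AL. The EOD libraries were below all IF16 libraries, and only EOD replicate 5 reached the lowest AL library. Fah fell by 0.40 on the log2 scale in EOD against AL (SE 0.10, adjusted p = 0.00561) and by 0.43 in EOD against IF16 (SE 0.10, adjusted p = 0.00828). Of the other genes of this route, the pterin cofactor genes Qdpr and Pcbd1 fell in EOD against both other groups. Qdpr fell by 0.58 in EOD against AL (adjusted p = 0.000568) and by 0.46 in EOD against IF16 (adjusted p = 0.00774), and Pcbd1 fell by 0.41 in EOD against AL (adjusted p = 0.00692) and by 0.40 in EOD against IF16 (adjusted p = 0.0169).

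In histidine breakdown the first enzyme gene was not called and 2 later ones fell in EOD against AL livers, where 17.6% of all genes tested were called lower. Hal, the ammonia lyase that commits histidine to breakdown, was at 285 to 373 CPM in EOD, 243 to 321 CPM in IF16 and 304 to 363 CPM in AL (log2 fold change 0.02 in EOD against AL, SE 0.10). Uroc1, the urocanate hydratase, was at 294, 299, 293, 351 and 414 CPM in EOD, at 399, 411, 395, 452 and 436 CPM in IF16, and at 465, 474, 397, 388 and 394 CPM in AL. Of the EOD libraries, 4 lay below every other library and EOD replicate 5 lay among the others. Uroc1 fell by 0.36 on the log2 scale in EOD against AL (SE 0.11, adjusted p = 0.0172), a call that ended without EOD replicate 3 (adjusted p = 0.0509) or AL replicate 1 (adjusted p = 0.0515, the highest over the alternatives, the lowest being 0.00231). Its fall of 0.34 in EOD against IF16 (adjusted p = 0.0409) ended under 18 of the 25 alternatives, among them leaving out any of EOD replicates 1 to 4, IF16 replicates 1 to 5 or AL replicates 1, 3 and 5 (adjusted p of 0.0526 to 0.117 in those, and 0.00573 to 0.117 over all alternatives).

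Ftcd, which passes the formimino group of histidine to tetrahydrofolate, was at 267, 334, 293, 391 and 384 CPM in EOD, at 361, 407, 414, 484 and 429.9 CPM in IF16, and at 445, 529.8, 398, 404 and 439 CPM in AL. The EOD libraries lay below all AL libraries and overlapped IF16. Ftcd fell by 0.41 on the log2 scale in EOD against AL (SE 0.12, adjusted p = 0.0152), and the value in EOD against IF16 was -0.33 (SE 0.12, adjusted p = 0.0734). Amdhd1, the imidazolonepropionase, was at 253, 237, 207, 218 and 281 CPM in EOD, at 185, 200.1, 178, 212 and 168 CPM in IF16, and at 240.3, 223, 228, 202 and 200.1 CPM in AL. It rose in EOD against IF16 (0.34, SE 0.10, adjusted p = 0.0296), where EOD replicate 3 overlapped the IF16 range. That call ended without EOD replicate 1 (adjusted p = 0.0705), EOD replicate 2 (0.0545), IF16 replicate 3 (0.0589) or IF16 replicate 5 (0.084), in a range of 0.00675 to 0.101 over the alternatives.

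Among the enzymes of alanine, aspartate and glutamate, both aspartate aminotransferases fell in EOD livers and glutamate dehydrogenase rose. The shares over all genes tested were 17.6% higher and 17.6% lower in EOD against AL. Glud1, the mitochondrial enzyme that frees ammonia from glutamate, was at 887, 1112, 1200.1, 1005 and 856 CPM in EOD, at 696, 726, 765, 721 and 640.2 CPM in IF16, and at 872, 675, 818, 846 and 706 CPM in AL. The EOD libraries exceeded all IF16 libraries, and EOD replicate 5 overlapped AL. Glud1 rose in EOD against AL (0.37, SE 0.11, adjusted p = 0.0161) and in EOD against IF16 (0.51, SE 0.11, adjusted p = 0.00546).

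Got1, the cytosolic aspartate aminotransferase, was at 212, 153, 172, 184 and 200.3 CPM in EOD, at 214, 158, 162, 189 and 293 CPM in IF16, and at 257, 259, 219, 291 and 249 CPM in AL. The EOD libraries lay below all AL libraries, and the fall was 0.47 on the log2 scale (SE 0.15, adjusted p = 0.0215). That call ended without EOD replicate 2 (adjusted p = 0.0614), EOD replicate 3 (0.0543) or AL replicate 4 (0.0529), and at -0.38 without AL replicates 4 and 5 (adjusted p = 0.107, range over the alternatives 0.00622 to 0.107). The high IF16 library for Got1 was replicate 5, the one with skeletal muscle transcripts, whose part in the value was not tested. Got2, the mitochondrial form, was at 448, 467, 440.1, 449 and 543 CPM in EOD, at 607, 641, 559, 659 and 550.1 CPM in IF16, and at 689, 574, 654, 606 and 567 CPM in AL. Its EOD libraries lay below all others, with a log2 fold change of -0.40 in EOD against AL (SE 0.10, adjusted p = 0.00417) and -0.36 in EOD against IF16 (SE 0.10, adjusted p = 0.0165). The fall against IF16 ended without IF16 replicate 4 (adjusted p = 0.0506, the highest over the alternatives, the lowest being 0.00145). Got2-ps1, a pseudogene copy, drew at most 5 counts in a library.

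The alanine aminotransferases Gpt and Gpt2 and the liver glutaminase Gls2 were not called in any comparison. Gpt was at 234 to 326 CPM in EOD, 286 to 342 CPM in IF16 and 256 to 335 CPM in AL, and Gpt2 was at 272 to 396, 347 to 466 and 347 to 448 CPM in EOD, IF16 and AL. Gls2 was at 347 to 446 CPM in EOD, 309.96 to 406 CPM in IF16 and 335 to 436 CPM in AL, and it overlaps Spryd4 on the other strand, with 5.15% of its counts. Of the 6 other genes of this group, 1 rose and 2 fell in EOD against AL, where 17.6% of all genes tested were higher and 17.6% lower. The asparaginase Aspg fell by 0.88 (adjusted p = 0.000776), and Glul, the glutamine synthetase of pericentral hepatocytes, fell by 0.41 (adjusted p = 0.00376). Agxt, which transaminates glyoxylate with alanine or serine, had 297 to 476 CPM in EOD, 176 to 248 CPM in IF16 and 275 to 317 CPM in AL. It rose in EOD against AL (0.36, adjusted p = 0.0287), fell in IF16 against AL (-0.48, adjusted p = 0.038) and rose in EOD against IF16 (0.84, adjusted p = 0.000267), with the EOD and IF16 libraries apart. The Agxt call in EOD against AL ended without EOD replicate 2 (0.0692), AL replicate 2 (0.0592) or 4 (0.0545), or both AL replicates 4 and 5 (0.053) (each value an adjusted p, range over the alternatives 0.0119 to 0.102). The Agxt call in IF16 against AL ended without IF16 replicate 2 (0.0877), 3 (0.0958) or 5 (0.109), AL replicate 1 (0.0555), 3 (0.0743), 4 (0.0618) or 5 (0.0702), or both AL replicates 4 and 5 (0.0988) (each value an adjusted p, range over the alternatives 0.00623 to 0.109). In EOD against IF16, Aspg fell by 0.60 (adjusted p = 0.0231) and the asparaginase Asrgl1 by 0.44 (adjusted p = 0.026). The Aspg call in EOD against IF16 ended without EOD replicate 1 (0.0571), 2 (0.0612) or 3 (0.0666), or IF16 replicate 4 (0.0523) (each value an adjusted p, range over the alternatives 0.00225 to 0.0715). The Asrgl1 call in EOD against IF16 ended without EOD replicate 2 (0.0591) or 4 (0.0618), or IF16 replicate 1 (0.0842), 2 (0.0504) or 5 (0.0557) (each value an adjusted p, range over the alternatives 0.0119 to 0.103).

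Both genes of proline breakdown among the 38 fell in EOD livers, and ornithine aminotransferase fell in IF16 livers. The shares of all genes tested called lower were 17.6% in EOD against AL and 2.10% in IF16 against AL. Prodh, the proline oxidase of the first step, was at 141, 81.6, 133, 111 and 171 CPM in EOD, at 216, 192, 153, 158 and 186 CPM in IF16, and at 230.3, 248, 179, 152 and 193 CPM in AL. Only EOD replicate 5 exceeded the lowest AL library, and the log2 fold change was -0.65 in EOD against AL (SE 0.17, adjusted p = 0.00739) and -0.51 in EOD against IF16 (SE 0.17, adjusted p = 0.0531). Prodh overlaps Dgcr6 on the opposite strand, which had 25.1% of its counts and a log2 fold change of 0.19 (adjusted p = 0.234) in EOD against AL. The value of Prodh is uncertain to that extent, and the part of the overlap in it was not tested. Aldh4a1, which oxidises the product to glutamate, was at 173, 167, 202, 167 and 169 CPM in EOD, at 216, 233, 209.7, 204 and 204 CPM in IF16, and at 241, 206, 214, 203 and 187 CPM in AL. EOD replicate 3 was the high EOD library and the only one within the AL range. The 2 other genes of proline breakdown were not called in any comparison.

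The falls of Aldh4a1 were small, at 0.26 on the log2 scale in EOD against AL (SE 0.09, adjusted p = 0.0324) and 0.28 in EOD against IF16 (SE 0.09, adjusted p = 0.0427). The fall against AL ended without EOD replicate 1 (adjusted p = 0.0614), 2 (0.0778), 4 (0.0671) or 5 (0.0681), IF16 replicate 1 (0.0533), or AL replicate 1 (0.133) or 3 (0.0621), in a range of 0.013 to 0.133 over the alternatives. The fall against IF16 ended under 17 of the 25 alternatives, among them leaving out any single library except EOD replicate 3 or AL replicate 2 (adjusted p of 0.0509 to 0.112 in those, and 0.0139 to 0.112 over all alternatives).

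Oat, the mitochondrial enzyme that turns ornithine into glutamate semialdehyde, was at 1262, 934, 1064, 1168 and 1270.1 CPM in EOD. In IF16 it was at 808, 1144, 869, 988 and 950.3 CPM, and in AL at 1627, 1119, 1477, 1224 and 1421 CPM. IF16 was the low group, with IF16 replicate 2 just above the lowest AL library, and Oat fell by 0.53 on the log2 scale in IF16 against AL (SE 0.13, adjusted p = 0.0257). In EOD against AL it was -0.27 (SE 0.13, adjusted p = 0.105). The call in IF16 ended without IF16 replicate 3 (adjusted p = 0.0739), IF16 replicate 5 (0.0654), AL replicate 1 (0.0653), AL replicate 3 (0.0534) or both AL replicates 4 and 5 (0.0521), in a range of 0.00254 to 0.0739 over the alternatives.

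In lysine breakdown the entry enzyme rose in EOD livers. Over all genes tested, 17.6% were called higher and 17.6% lower in EOD against AL, and 7.96% and 8.15% in EOD against IF16. Aass, which joins lysine to 2-oxoglutarate and splits the product, was at 409, 287, 314, 385 and 247 CPM in EOD, at 213, 236, 261, 212 and 236 CPM in IF16, and at 219.9, 179, 207, 275 and 216 CPM in AL. EOD replicate 5 was the low EOD library and overlapped both other groups, while the other 4 lay above all of them. Aass rose in EOD against AL (log2 fold change 0.58, SE 0.14, adjusted p = 0.00368) and in EOD against IF16 (0.50, SE 0.14, adjusted p = 0.0194). The rise against IF16 ended without EOD replicate 1 (adjusted p = 0.0637, the highest over the alternatives, the lowest being 0.0029). Aadat, the aminoadipate aminotransferase of a later step, which also acts on kynurenine, was not called, at 74.1 to 82.7 CPM in EOD, 59.1 to 77.1 CPM in IF16 and 48.8 to 107 CPM in AL. Of 6 other genes of lysine breakdown, Phykpl, a phospholyase acting on hydroxylysine, fell in EOD against AL (-0.36, adjusted p = 0.0158). The fall of Phykpl ended without AL replicates 4 and 5 (adjusted p = 0.0833, the highest over the alternatives, the lowest being 0.00646). Pipox, an oxidase of pipecolate and sarcosine, fell in EOD against IF16 (-0.27, adjusted p = 0.0255). The Pipox call in EOD against IF16 ended without EOD replicate 2 (0.0588), 3 (0.0634) or 4 (0.0612), or IF16 replicate 1 (0.0549), 2 (0.0638), 3 (0.0508) or 4 (0.0639) (each value an adjusted p, range over the alternatives 0.000461 to 0.0788).

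Of the 8 genes of branched chain amino acid breakdown, 2 rose in EOD against AL and none was called in the other comparisons. Of all genes tested, 17.6% were called higher and 17.6% lower in EOD against AL. The shares called were 3.50% in IF16 against AL and 16.1% in EOD against IF16. Bckdhb, the beta subunit of the decarboxylase in the branched chain ketoacid dehydrogenase, was at 91.5, 76.5, 92.0, 68.7 and 73.7 CPM in EOD, at 78.4, 78.2, 69.8, 72.6 and 75.0 CPM in IF16, and at 67.3, 63.3, 58.8, 70.9 and 63.5 CPM in AL. EOD replicate 4 lay within the AL range and the other EOD libraries above it, a rise of 0.31 (SE 0.10, adjusted p = 0.0169). That call ended without EOD replicate 3 (adjusted p = 0.0509, the highest over the alternatives, the lowest being 0.00508). Hibch, the hydrolase of the valine route, was at 76.4, 72.3, 89.1, 74.5 and 52.1 CPM in EOD, at 71.6, 73.5, 63.0, 52.5 and 60.2 CPM in IF16, and at 67.4, 52.3, 58.9, 54.1 and 49.7 CPM in AL. EOD replicate 5 was the low EOD library, and the log2 fold change was 0.37 (SE 0.13, adjusted p = 0.0384), or 0.50 without EOD replicate 5 (adjusted p = 0.00271). The Hibch call ended without EOD replicate 1 (adjusted p = 0.0733), 2 (0.0623), 3 (0.11) or 4 (0.0617), or AL replicate 2 (0.0775), 4 (0.0714) or 5 (0.0836). Without both AL replicates 4 and 5 it was 0.32 (adjusted p = 0.141, range over the alternatives 0.00271 to 0.141).

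The partner subunits of Bckdhb were not called: Bckdha, the alpha subunit, was at 255 to 288 CPM in EOD, 273 to 307 CPM in IF16 and 271 to 306 CPM in AL, and Dbt, the transacylase core, at 70.6 to 100.3, 83.5 to 96.1 and 69.4 to 89.7 CPM in EOD, IF16 and AL. Bcat2, the aminotransferase of the first step, was at 17.3 to 34.9 CPM in EOD, 17.2 to 27.0 CPM in IF16 and 15.2 to 32.7 CPM in AL. Its value is uncertain, because the gene 0610005C13Rik overlaps its coordinates on the other strand and had 530% of its counts. How many exon bases they share was not measured. Ivd, the isovaleryl-CoA dehydrogenase of the leucine route, was at 164 to 241 CPM in EOD, 193 to 236 CPM in IF16 and 199.7 to 221 CPM in AL. The 2 subunits of methylcrotonyl-CoA carboxylase were not called either. Mccc1 was at 28.1 to 35.7 CPM in EOD, 34.1 to 42.5 CPM in IF16 and 32.6 to 48.4 CPM in AL (log2 fold change -0.28 in EOD against AL, SE 0.11, adjusted p = 0.0597), and Mccc2 was at 40.1 to 49.2, 40.5 to 53.3 and 38.9 to 53.4 CPM in EOD, IF16 and AL.

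Further down the branched chain routes, 6 of 16 other genes tested rose in EOD against AL and none fell, against 17.6% of all genes called higher. Pccb, a subunit of propionyl-CoA carboxylase, rose by 0.93 in EOD against AL (SE 0.15, adjusted p = 0.000208) and by 0.60 in EOD against IF16 (adjusted p = 0.0123). Acat1, the acetoacetyl-CoA thiolase, rose by 0.90 in EOD against AL (SE 0.17, adjusted p = 0.000616). Acad8, the isobutyryl-CoA dehydrogenase, rose by 0.40 in EOD against IF16 (adjusted p = 0.0131). In that comparison 4 of the 16 rose and none fell, where 7.96% of all genes tested were called higher and 8.15% lower. None of the 16 was called in IF16 against AL, where 3.50% of all genes were. Bckdk, the kinase that inhibits the ketoacid dehydrogenase, was not called, with a log2 fold change of 0.20 in EOD against AL (SE 0.10, adjusted p = 0.136).

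Neither serine dehydratase gene was called in the test used throughout, but both were called in EOD against AL under some alternatives. For Sds this was without EOD replicate 5. For Sdsl it was without AL replicate 5, without both AL replicates 4 and 5, and with the replicate block. Sds, which deaminates serine and threonine to feed glucose synthesis, was at 64.4, 57.7, 67.4, 116 and 154 CPM in EOD, at 90.3, 74.3, 90.8, 116 and 116 CPM in IF16, and at 102, 107, 99.5, 108 and 134 CPM in AL. Of the EOD libraries, 3 lay below the AL range, 1 within it and 1 above it. Its spread in EOD (coefficient of variation 45.4%) was the widest of the 38 genes in any group, and the log2 fold change was -0.26 (SE 0.23, adjusted p = 0.407). Sds overlaps Plbd2 on the opposite strand, with 69.6% of its counts, and its value is uncertain for that reason, though shared exon bases were not measured. Sdsl, a related gene, was at 22.5, 24.4, 20.3, 26.9 and 27.4 CPM in EOD, at 15.5, 18.1, 19.9, 24.3 and 21.8 CPM in IF16, and at 15.7, 17.2, 15.3, 22.7 and 28.6 CPM in AL, with overlap between all groups (0.29 in EOD against AL, SE 0.17, adjusted p = 0.185).

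Of 7 other genes of serine, glycine and threonine tested, 1 fell in EOD against AL, where 17.6% of all genes tested were called lower. It was Shmt2, the mitochondrial hydroxymethyltransferase that interconverts serine and glycine, at 130.2 to 161 CPM in EOD, 176 to 204 CPM in IF16 and 179 to 223 CPM in AL. The EOD libraries lay below all others, with a log2 fold change of -0.55 in EOD against AL (SE 0.09, adjusted p = 0.000241) and -0.47 in EOD against IF16 (SE 0.09, adjusted p = 0.00251). Gcat, which splits a threonine breakdown product into glycine and acetyl-CoA, fell in EOD against IF16 (-0.46, adjusted p = 0.0085). Tdh and Dao were too low to be tested. Around cysteine, the sulfur transferase genes Tst (-0.51, adjusted p = 0.000277) and Mpst (-0.33, adjusted p = 0.0219) fell in EOD against AL, while Cdo1 and Csad rose. The Mpst call in EOD against AL ended without EOD replicate 5 (0.0579), or AL replicate 1 (0.0825) (each value an adjusted p, range over the alternatives 0.00774 to 0.0825). Ethe1, a persulfide dioxygenase, fell in IF16 against AL (-0.72, adjusted p = 0.0155). The Ethe1 call in IF16 against AL ended without IF16 replicate 3 (0.0516) or 5 (0.052) (each value an adjusted p, range over the alternatives 0.00114 to 0.052). In EOD against IF16, Suox, the sulfite oxidase, rose by 0.61 (adjusted p = 0.0291) and Tst fell by 0.35 (adjusted p = 0.0112). The Suox call in EOD against IF16 ended without EOD replicate 1 (0.0829) or 2 (0.0589), or IF16 replicate 3 (0.0604), 4 (0.0594) or 5 (0.0712) (each value an adjusted p, range over the alternatives 0.00614 to 0.0835).

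**Figure D3:**
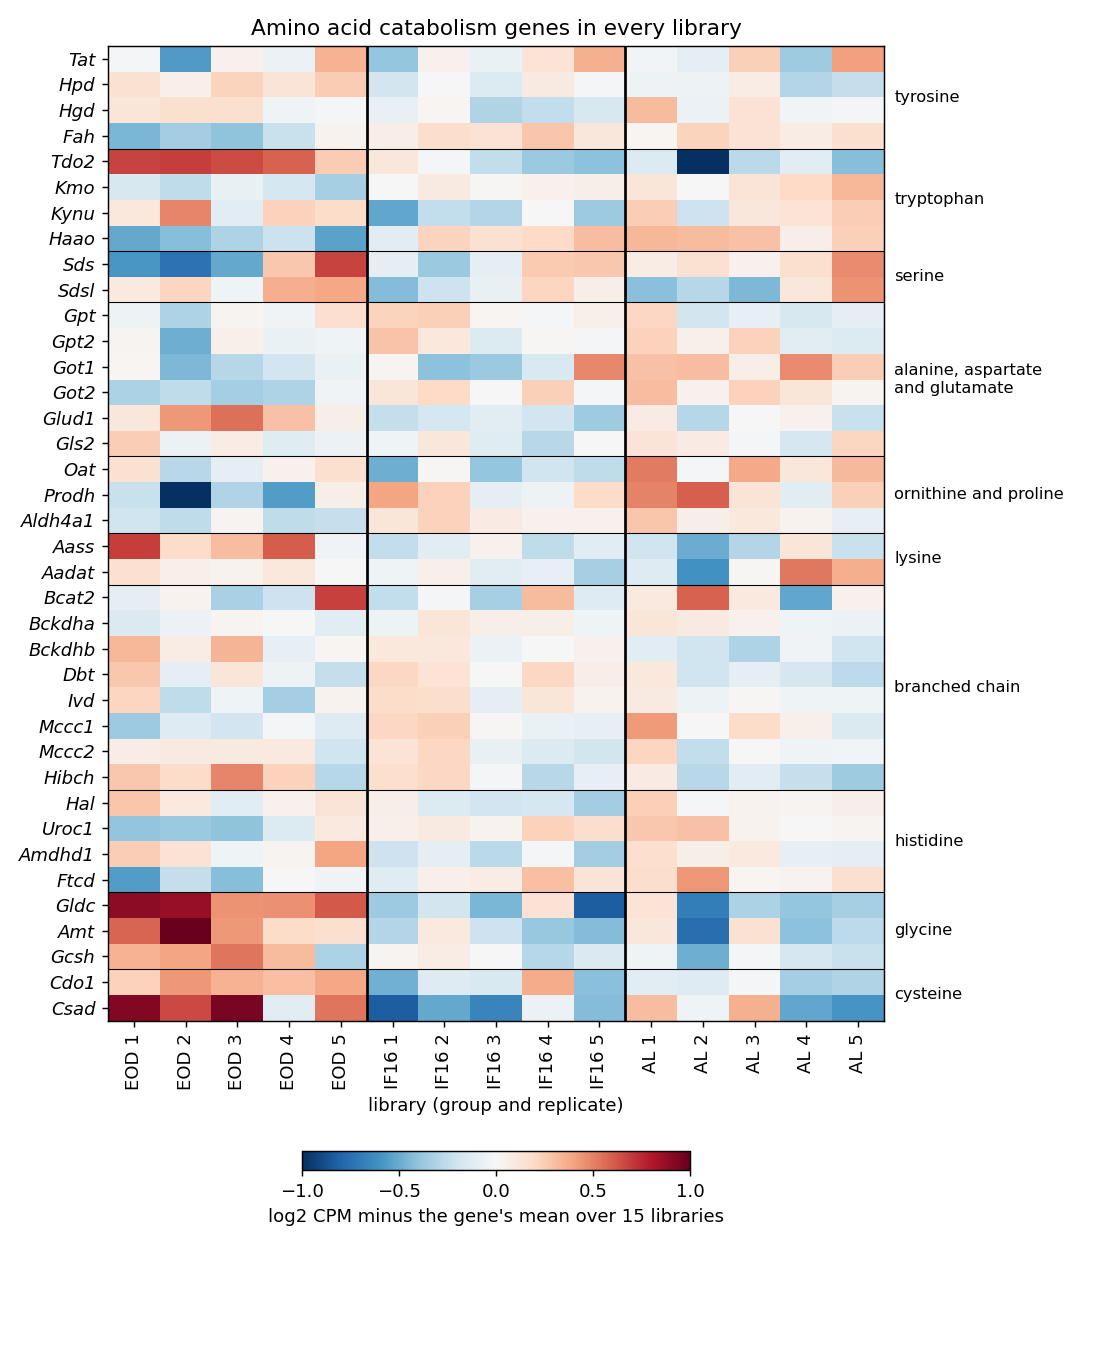
Log2 CPM minus the gene's mean over the 15 libraries (colour) for the 38 genes (rows, grouped by amino acid) in each library (columns). EOD replicates 1 to 4 share high Tdo2, Gldc, Amt and Gcsh, EOD replicate 5 is weaker in Tdo2 and below average in Gcsh, and AL replicate 2 is low in Tdo2, Gldc and Amt.

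Single libraries recurred at the edges. Of the 11 genes that rose in EOD against AL, EOD replicate 5 was the lowest EOD library for 6 and AL replicate 2 the lowest AL library for 6. Of the 9 that fell, EOD replicate 5 was the highest EOD library for 4 and AL replicate 2 the highest AL library for 4. These 2 libraries also had the highest mitochondrial shares of their groups, at 10.1% and 15.1%, and the part of that share in the levels was not tested. The groups did not overlap between EOD and AL for 4 of the genes higher in EOD (Tdo2, Gldc, Amt and Cdo1) and 5 of the genes lower in EOD (Kmo, Haao, Got1, Got2 and Ftcd), where 8.46% and 10.2% of all genes tested were so. Between EOD and IF16 the counts were 4 higher and 5 lower, against 4.63% and 6.26%, and between IF16 and AL no gene of the 38 was so placed, against 2.59% and 3.19%.

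**Figure D4:**
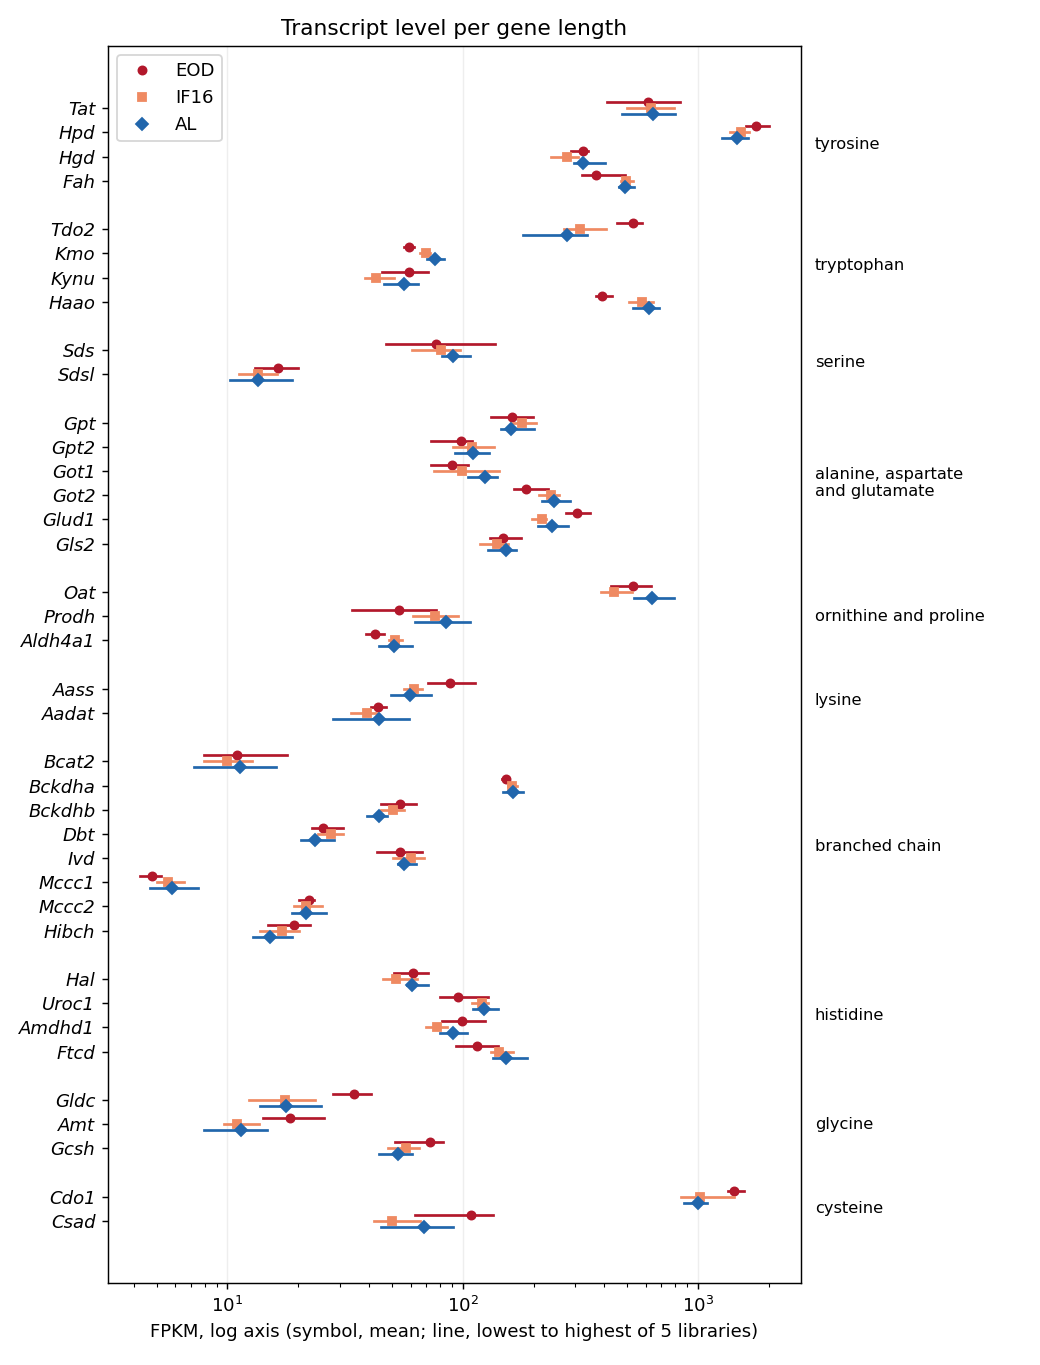
FPKM on a log axis (x) for the 38 genes (y, grouped by amino acid); symbols are group means and lines run from the lowest to the highest of 5 libraries. Hpd and Cdo1 lead in every group, and Mccc1 is lowest.

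Levels of different genes were compared per length, as FPKM. Hpd was the most abundant of the 38 in every group, with a mean of 1761 ± 156 FPKM in EOD, 1518 ± 105 FPKM in IF16 and 1469 ± 173 FPKM in AL (SD, n = 5 each). Cdo1 came second, at 1421 ± 108, 1022 ± 237 and 1003 ± 112 FPKM in EOD, IF16 and AL, and Tat came next, at 612 ± 154, 631 ± 111 and 645 ± 123 FPKM. Mccc1 was last, at 4.77 ± 0.43, 5.61 ± 0.72 and 5.84 ± 1.04 FPKM. By rank, Csad was 15th in EOD, 28th in IF16 and 22nd in AL, at 109 ± 28.2, 50.1 ± 9.82 and 68.5 ± 21.5 FPKM. Prodh was 28th in EOD and 20th in both IF16 and AL. Of the glycine cleavage genes, Gldc was at 34.5 ± 5.87, 17.5 ± 4.18 and 17.8 ± 4.19 FPKM in EOD, IF16 and AL. It ranked 31st in EOD and 33rd in both IF16 and AL, although it was among the genes with the highest fold change. Amt ranked 35th in EOD and 36th in both IF16 and AL. Gcsh ranked 22nd in EOD, 24th in IF16 and 27th in AL. The median coefficient of variation of CPM between libraries over the 38 genes was 12.9% in EOD, 10.3% in IF16 and 11.5% in AL.

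Over all 56 other genes of these pathways, 52 were tested, of which 9 rose and 12 fell in EOD against AL, none rose and 4 fell in IF16 against AL, and 7 rose and 12 fell in EOD against IF16. Of all genes tested, 17.6% were higher and 17.6% lower in EOD against AL, 1.40% and 2.10% in IF16 against AL, and 7.96% and 8.15% in EOD against IF16. The median log2 fold change of the 52 in EOD against AL was 0.00. Of 11 amino acid carriers, 1 rose and 3 fell in EOD against AL, beside the same 17.6% and 17.6% of all genes. The weakest of these falls, in a gene not named here, had an adjusted p of 0.0497 and ended under 21 of the 25 alternatives. Slc38a3, a carrier of glutamine and histidine, was at 551 to 689.6 CPM in EOD, 824 to 1651 CPM in IF16 and 1534 to 2088 CPM in AL, with no overlap between EOD and either other group. The log2 fold change of -1.54 in EOD against AL (SE 0.15, adjusted p = 2.47e-06) exceeded in size that of any of the 38 enzymes, and that in EOD against IF16 was -1.05 (adjusted p = 0.000252). Slc16a10, a carrier of aromatic amino acids, rose in EOD against AL (0.44, adjusted p = 0.0131) and in EOD against IF16 (0.42, adjusted p = 0.0333). The Slc16a10 call in EOD against IF16 ended without EOD replicate 1 (0.0767) or 3 (0.0909), or IF16 replicate 2 (0.0688), 3 (0.0774) or 5 (0.0589) (each value an adjusted p, range over the alternatives 0.016 to 0.0909). Slc7a2, a carrier of cationic amino acids, fell in EOD against AL (-0.40, adjusted p = 0.0282) and in IF16 against AL (-0.60, adjusted p = 0.02). The Slc7a2 call in EOD against AL ended without EOD replicate 1 (0.0647), 2 (0.0805) or 3 (0.0572), AL replicate 4 (0.0914) or 5 (0.0527), or both AL replicates 4 and 5 (0.266) (each value an adjusted p, range over the alternatives 0.0114 to 0.266). The Slc7a2 call in IF16 against AL ended without IF16 replicate 2 (0.0545) or 3 (0.0593), AL replicate 4 (0.0517), or both AL replicates 4 and 5 (0.111) (each value an adjusted p, range over the alternatives 0.00133 to 0.111). Slc3a2, the heavy chain of several carriers, rose in IF16 against AL (0.33, adjusted p = 0.0243). The Slc3a2 call in IF16 against AL ended without IF16 replicate 2 (0.0874), 3 (0.0872), 4 (0.0682) or 5 (0.0594), AL replicate 1 (0.062), 4 (0.0565) or 5 (0.0648), or both AL replicates 4 and 5 (0.1) (each value an adjusted p, range over the alternatives 0.000318 to 0.1).

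Of 10 regulators of these genes, Ppara, a fatty acid sensing nuclear receptor, rose in all 3 comparisons. It was at 42.4 to 50.4 CPM in EOD, 34.1 to 37.6 CPM in IF16 and 18.4 to 30.7 CPM in AL, with none of the groups overlapping. The log2 fold change was 0.92 in EOD against AL (SE 0.11, adjusted p = 1.93e-05), 0.49 in IF16 against AL (SE 0.11, adjusted p = 0.0222) and 0.42 in EOD against IF16 (SE 0.11, adjusted p = 0.0178). The Ppara call in IF16 against AL ended without IF16 replicate 2 (0.0691), 3 (0.0558) or 5 (0.0567), AL replicate 3 (0.0546) or 5 (0.0626), or both AL replicates 4 and 5 (0.109) (each value an adjusted p, range over the alternatives 0.00221 to 0.109). Cebpa fell in IF16 against AL (-0.52, adjusted p = 0.0276). The Cebpa call in IF16 against AL ended without IF16 replicate 3 (0.0773), 4 (0.0616) or 5 (0.0716), or AL replicate 1 (0.0755) (each value an adjusted p, range over the alternatives 0.00308 to 0.1). Klf15, a factor known to drive amino acid catabolism genes, had a log2 fold change of 0.20 in EOD against AL (SE 0.16, adjusted p = 0.343), and the glucagon receptor gene Gcgr one of 0.11 (SE 0.12, adjusted p = 0.531).

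Markers of other cells and liver zones moved too. In bulk liver, fewer cells of a type and less RNA per cell cannot be told apart. Beside the counts of markers below, 17.6% of all genes tested were called higher and 17.6% lower in EOD against AL. In IF16 against AL the shares were 1.40% and 2.10%. Of 6 markers of sinusoidal endothelium, 5 were higher in EOD against AL and 5 in IF16 against AL, with a summed level of 160.5 to 211 CPM in EOD, 158 to 185 CPM in IF16 and 71.7 to 125 CPM in AL. Of 6 stellate cell markers, 3 were higher and 1 lower in EOD against AL, at 201 to 276 CPM in EOD and 114 to 199.7 CPM in AL. Of 7 pericentral markers, 1 was higher (Cyp2e1) and 4 were lower (Glul, Cyp1a2, Rgn and Lgr5) in EOD against AL, and of 7 periportal markers 1 was higher and 1 lower. The summed pericentral level was 12294 to 14750.3 CPM in EOD and 7446 to 10372 CPM in AL, and most of it was Cyp2e1 (10454 to 12584 CPM in EOD and 4541 to 6726 CPM in AL), whereas the 4 markers that fell were lower with no overlap between EOD and AL. The summed periportal level was 10087 to 12225 CPM in EOD and 9671 to 12893 CPM in AL. Of the Kupffer cell markers, 5 were tested and none was called, with log2 fold changes of -0.11 to 0.41 in EOD against AL. The summed neutrophil markers were at 1.09 to 3.84 CPM in EOD, 1.31 to 1.95 CPM in IF16 and 1.26 to 28.1 CPM in AL, where replicates 4 and 5 were high (S100a8 at 12.3 and 9.96 CPM, against at most 1.04 CPM in AL replicates 1 to 3). The adipocyte marker Cfd was lower in EOD against AL (-3.00, adjusted p = 0.00232) and in IF16 against AL (-3.34, adjusted p = 0.0113), with 7.31 to 8.64 CPM in AL replicates 1 to 3 and at most 1.03 CPM in every other library. The other listed adipocyte markers, Adipoq and Plin1, were too low to be tested. In AL replicates 1 and 3, Adipoq was at 1.06 and 2.35 CPM and Plin1 at 0.458 and 0.816 CPM. Every other library had at most 0.378 CPM of Adipoq and 0.178 CPM of Plin1. Both Adipoq and Plin1 were at 0 CPM in AL replicate 2, where Cfd was at 7.49 CPM. The part of adipocytes in the Cfd values was not tested. No listed marker in the table was at 0 in all libraries, and the part of cell makeup and zone in the changes of the 38 genes was not tested.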

How the data were processed

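Liver mRNA of 15 libraries (5 EOD, 5 IF16, 5 AL) was measured by RNA-seq. Per the labels' protocols, mRNA was selected on poly-T beads and libraries were built using a NEBNext Ultra kit. The sources used here do not give the strand setting of the counting, nor how reads that hit more than 1 gene were treated. Overlapping genes on opposite strands may therefore share or lose reads. Overlaps were taken from the start and end of each gene, and exon bases in common were not measured. The count table deposited by the authors holds raw whole numbers, and the deposited FPKM values equal the count scaled by gene length and library total in 100% of values (relative tolerance 1e-08). The submitters' processing notes list STAR 2.5, HTSeq 0.6.1, DESeq2 and the build mm10 and give no roles.

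The count test was edgeR 4.0.16 under R 4.3.3: filterByExpr with a minimum count of 10, TMM scaling, 1 mean per group over all 15 libraries, and glmQLFTest with robust dispersions. A common biological coefficient of variation of 0.211 was estimated. The SE of a log2 fold change was computed as its size over the root of the F statistic. All 30 pairs of libraries within groups differed by more than sampling noise (chi-square over its degrees of freedom, 23.1 to 201). The floor of 3 counts covers counting error only; the SEs and p-values cover the spread between libraries.

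The genes and lists were chosen with earlier results of these data known, and no test was made over a list. Of the 38, genes called in any comparison and the gene with the smallest p for each amino acid are given by library, the others mostly by range. Of other pathway genes, up to 3 called genes with the smallest p per list and comparison are named, except that results for some genes are not reported here, and where a log2 fold change is given as 0.00 it rounds to that. The 25 alternatives were size factors and the Wald test of DESeq2 1.42.0, no low-count filter, 1 CPM in 5 libraries, only the 2 groups compared, a replicate block, leaving out each library in turn, AL replicates 4 and 5 left out, and limma 3.58.1 on log2(FPKM + 1) or log2(FPKM + 0.1) at a mean of at least 0.5, or with no filter. The script was tested on simulated data. Promoter sequences are from RefSeq (GRCm38.p6), matched by symbol for 31 of the 38 genes.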

Additional observations from a re-analysis of the deposited data

Results flagged for a closer look

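Over the 114 combinations of gene and group, 9 held a library set apart from the other 4 by more than a Dixon test at the 95% level allows, where about 5.7 would be marked by chance alone. EOD replicate 5 accounted for 4 of them. In it, Tdo2 was low at 1262 CPM (1589.5 to 1707 CPM in the other EOD libraries), Mccc2 was low at 40.1 CPM (48.6 to 49.2 CPM), Got2 was high at 543 CPM (440.1 to 467 CPM) and Bcat2 was high at 34.9 CPM (17.3 to 22.2 CPM). In Tdo2 and Got2 these values lay toward the AL level. The same library had a mitochondrial share of 10.1%, and the part of that share was not tested. Gpt2 was low in EOD replicate 2, at 272 CPM (364 to 396 CPM in the others), and Aldh4a1 was high in EOD replicate 3, at 202 CPM (167 to 173 CPM). In AL replicate 1, Gpt was high at 335 CPM (256 to 274 CPM) and Hal was high at 363 CPM (304 to 321 CPM). Sds was high in AL replicate 5, one of the libraries with high Saa1, at 134 CPM (99.5 to 108 CPM).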

How the results depend on the processing

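In EOD against AL, the calls of 12 of 20 genes held under all 25 alternatives. Those ended by at least 1 were Hpd, Kmo, Got1, Aldh4a1, Bckdhb, Hibch, Uroc1 and Csad. In EOD against IF16, 7 of 14 held, and the single call in IF16 against AL did not hold under 7. No value reversed. The number of the 38 genes called in IF16 against AL, all of them lower, was 0 under the replicate block, 0 without AL replicates 4 and 5, 0 by limma on log2(FPKM + 1) with no filter, and 2 by the DESeq2 Wald test. Over all genes, these settings called 492, 368, 261 and 937 in IF16 against AL, in that order. The number lower in EOD against IF16 was 3 without the filter on low counts, 3 with the 2 groups alone, 3 without AL replicates 4 and 5, and 8 by the DESeq2 Wald test. Over all genes, these settings called 1825, 2247, 2382 and 2820 in EOD against IF16, in that order. Of those calls, 47.7%, 52.7%, 54.3% and 51.3% were higher. The cause of these shifts was not tested. Leaving out 1 library at a time, the number called in EOD against AL was 14 to 20 (7 to 11 higher, 7 to 10 lower), in IF16 against AL 0 to 2 (0 higher, 0 to 2 lower), and in EOD against IF16 9 to 16 (6 to 10 higher, 2 to 6 lower). All genes called ranged over 3913 to 5726, 241 to 619 and 1418 to 3383, and the median log2 fold change of the 38 over -0.02 to 0.05, -0.08 to 0.01 and 0.04 to 0.15.

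Besides left-out libraries and the block, these settings ended calls given above, with the adjusted p in parentheses. Dropping the low-count filter ended Hpd (0.0765) and Aldh4a1 (0.0829) in EOD against AL, and Slc3a2 (0.073) in IF16 against AL, and Aldh4a1 (0.097), Uroc1 (0.0631), Amdhd1 (0.057) and Pipox (0.0788) in EOD against IF16. Fitting the 2 groups alone ended Hpd (0.0707), Aldh4a1 (0.066) and Hibch (0.058) in EOD against AL, and Aldh4a1 (0.056) and Uroc1 (0.0581) in EOD against IF16. Limma on log2(FPKM + 1) ended Agxt (0.0552) in EOD against AL, and Uroc1 (0.0522), Amdhd1 (0.0515), Ido2 (0.0594) and Asrgl1 (0.0538) in EOD against IF16. Limma on log2(FPKM + 0.1) ended Agxt (0.0549) in EOD against AL, and Uroc1 (0.052), Amdhd1 (0.0514), Ido2 (0.0581) and Asrgl1 (0.0535) in EOD against IF16. Limma with no filter ended Hpd (0.0601), Got1 (0.0606), Hibch (0.092), Csad (0.0604), Agxt (0.102) and Slc7a2 (0.0684) in EOD against AL, and Oat (0.0677), Qprt (0.0575), Ccbl1 (0.0594), Agxt (0.101), Slc7a2 (0.0674), Cebpa (0.1) and Ppara (0.0685) in IF16 against AL, and Aldh4a1 (0.0696), Uroc1 (0.103), Amdhd1 (0.101), Ido2 (0.119), Asrgl1 (0.103), Aspg (0.0715), Suox (0.0835) and Slc16a10 (0.0875) in EOD against IF16.

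The deviations of same-numbered libraries correlated at -0.14 to 0.24 in EOD against AL, -0.14 to 0.23 in IF16 against AL and 0.015 to 0.25 in EOD against IF16, where 4 of the 5 pairs were above 0.1. In none of the comparisons were all pairs above 0.1, and the labels tie no number to a shared source, so the libraries were taken as unpaired. The replicate block left 4809 genes called in EOD against AL, 492 in IF16 against AL and 2226 in EOD against IF16; among the 38 it ended Hpd and Oat and added Sdsl and Prodh, and it ended Agxt in EOD against AL (adjusted p = 0.0502) and in IF16 against AL (0.0609). At these depths the 38 genes lay far above the floor of 3 counts, the lowest at a mean of 18.4 CPM.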
